A study of Homo sapiens with 8 samples.

Results

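The genes that set the pace of the G1 phase of the cell cycle were followed in MCF-10A, a line of human breast epithelium that does not form tumours. The set held the D-type cyclin genes CCND1, CCND2 and CCND3, the E-type cyclin genes CCNE1 and CCNE2, and the genes of 5 inhibitors of cyclin-dependent kinases (CDKs), CDKN1A, CDKN1B, CDKN1C, CDKN2A and CDKN2B. These 10 genes were chosen by name, and each matched 1 of the 60617 genes in the count table. Messenger RNA, captured by oligo(dT), was sequenced from cells labelled Empty or NeuT, either untreated or given 1 µM JG-98 for 12 h, with 2 libraries in each of the 4 groups. JG-98 blocks chaperones of the Hsp70 family, and its effect on transformed cells was the subject of the series. The labels do not say what the NeuT cells carry, whether a line is 1 clone, or whether replicate libraries came from separate cultures, so p-values measure the spread between these libraries, which may be technical. All groups were grown with epidermal growth factor, insulin, hydrocortisone, cholera toxin and horse serum, so every value below is from cells that were given growth factors.

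In G1, growth signals raise D-type cyclins, which bind CDK4 and CDK6 and begin the phosphorylation of the retinoblastoma protein RB1. RB1 then releases E2F transcription factors, whose targets include the genes of the E-type cyclins, and cyclin E with CDK2 completes the step into S phase. Inhibitors of the Cip/Kip family, the products of CDKN1A (p21), CDKN1B (p27) and CDKN1C (p57), act mainly on CDK2 complexes, while those of the INK4 family, which include the products of CDKN2A and CDKN2B, block CDK4 and CDK6. CDKN2A also encodes ARF, a second protein read in another frame, and counts per gene do not separate the products. Cyclin D1 protein is known to be lost when the translation factor eIF2α is phosphorylated, and p27 is governed largely by protein turnover, so RNA levels are only part of how these proteins are set. MCF-10A cells are known for lacking the CDKN2A and CDKN2B locus, and RNA counts do not measure gene copies.

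Levels are given as CPM (each count over its library's total after scaling by the trimmed mean of M values, TMM), and the comparison of one gene with another uses TPM, which also divides by exonic length. Total counts lay between 55050996 and 56861971 per library, except for treated Empty replicate 1 with 37341458. Where a library lists 0, as many as 3 counts remain possible, which is 0.0803 CPM of the total in that shallowest library, and such limits cover counting error only. The basal epithelial markers KRT5, KRT14, KRT17 and TP63 summed to 13579 to 14973 CPM of the total in all libraries, and the epithelial markers EPCAM, CDH1, KRT8 and KRT18 to 3752 to 4196. Single markers differed between the lines within these sums: EPCAM was at 202.6 to 227.7 CPM of the total in Empty and 91.0 to 98.5 in NeuT, KRT17 at 5902 to 6504 and 4470 to 4703, KRT5 at 5114 to 5652 and 6741 to 7842, and TP63 at 2.74 to 3.72 and 7.06 to 9.12. The part of these differences in the comparisons of the lines was not tested. Of the markers of other cells, 6 fibroblast genes summed to 8.23 to 9.53 CPM of the total in Empty and to 65.4 to 81.1 in NeuT, where DCN held most of the sum with 3372 to 4189 counts, while LUM had at most 3 counts and PDGFRA at most 2 in any library. The 3 endothelial, 3 immune and 2 adipocyte markers summed to at most 15.5, 12.0 and 0.254 CPM of the total. Treated NeuT replicates differed from each other the most, with a chi-square statistic per gene of 22.0 against 4.52 to 8.20 for the other groups.

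The set split into abundant genes and genes with almost no counts. Of the 10 genes, 6 passed the filter on low counts and were tested: CCND1, CCND3, CCNE1, CCNE2, CDKN1A and CDKN1B. CDKN2B (ENSG00000147883, chromosome 9, 22002903 to 22009305) was listed at 0 in all 8 libraries. CDKN2A (ENSG00000147889, chromosome 9, 21967753 to 21995301) had 2 counts in untreated Empty replicate 1 and 0 in the other libraries. CCND2 (ENSG00000118971, chromosome 12, 4273762 to 4305353) had 2 counts in untreated NeuT replicate 1 and 0 elsewhere. CDKN1C (ENSG00000129757, chromosome 11, 2883213 to 2885773) had 1 to 11 counts per library and 39 in all. These 4 genes were at or near the limit of what the sequencing could show in both lines and with or without JG-98, and no fold change is given for them.

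The 0 counts on chromosome 9 did not extend to the whole neighbourhood. Going up in coordinates, KLHL9 (21329671 to 21335380) had 811 to 1437 counts per library, the non-coding MIR31HG had 75 to 139, and MTAP, the gene of methylthioadenosine phosphorylase, which lies before CDKN2A, had 2 to 4 in Empty and 13 to 30 in NeuT. CDKN2A-DT and CDKN2B-AS1, non-coding genes at the same locus, were at 0 in every library. Beyond CDKN2B, DMRTA1 had 23 to 64 counts and ELAVL2 (23690104 to 23826337) had 527 to 1001. IFNA1 and IFNE, genes of interferons that are silent in many cells, and HACD4 also had 11 counts or fewer in each library. In Empty, MTAP, IFNA1 and IFNE had 4 counts or fewer.

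**Figure D1:**
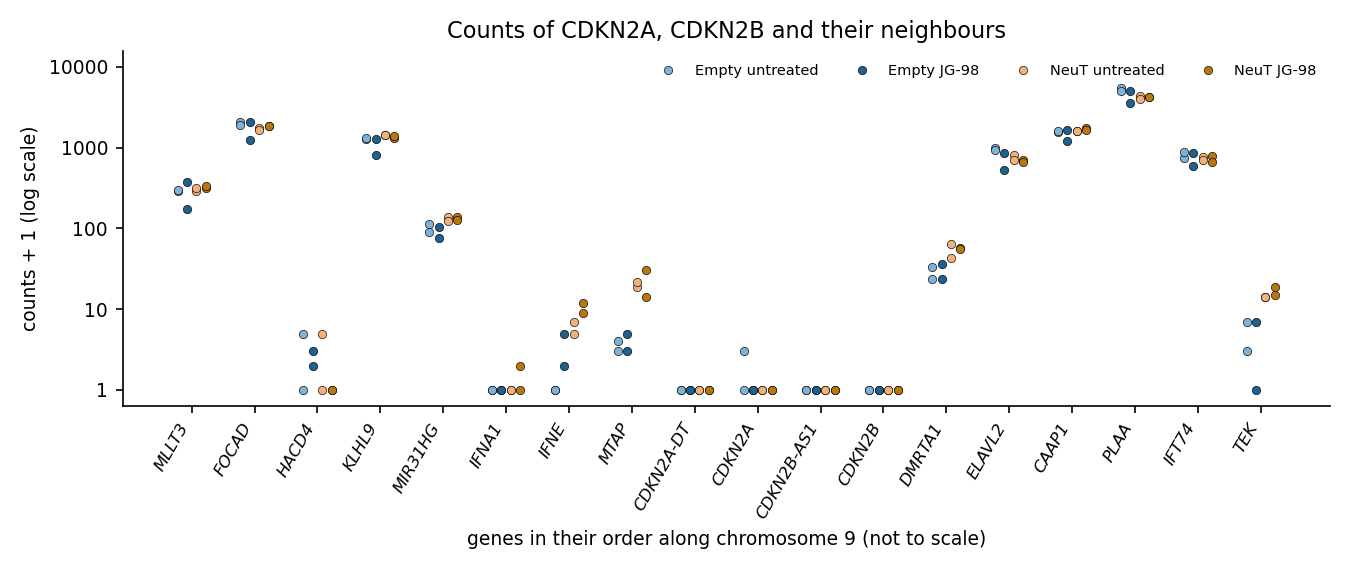
Counts per gene (vertical axis, counts + 1 on a log scale) for 18 genes in their order along chromosome 9, with 1 point per library coloured by group. CDKN2A-DT, CDKN2B-AS1 and CDKN2B are at 0 in all 8 libraries, while KLHL9 on one side has at least 811 counts and ELAVL2 on the other at least 527.

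Among the expressed genes, CDKN1A and CCND1 stood far above the rest. Per length, CDKN1A lay between 555.1 and 1059 TPM and above 99.5% of all genes with a count, and CCND1 lay between 275.9 and 475.3 TPM and above 98.7%. CCND3 followed with 121.2 to 150.9 TPM, CCNE1 with 37.0 to 59.3, CDKN1B with 22.6 to 36.3 and CCNE2 with 12.3 to 25.1. The ranges of CCNE1 and CDKN1B over the 8 libraries did not overlap, nor did those of any neighbours above them in this order, whereas the ranges of CDKN1B and CCNE2 did overlap. CCND1 made up 67.3 to 68.8% of the summed D-cyclin TPM in Empty and 76.6 to 78.6% in NeuT, and CCND3 nearly all of the remainder. CCNE1 made up 70.2 to 75.7% of the E-cyclin TPM, and CDKN1A 94.0 to 97.6% of that of the Cip/Kip genes.

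**Figure D2:**
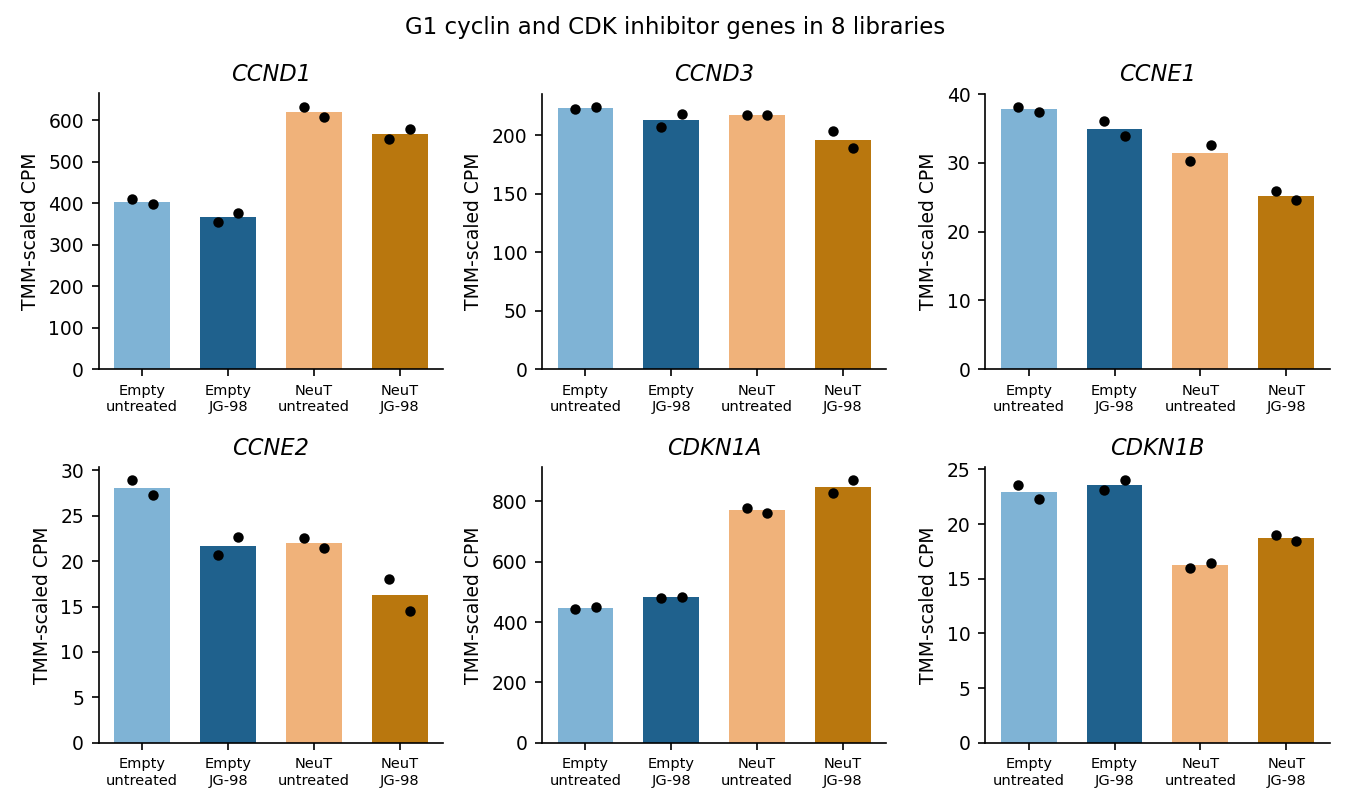
TMM-scaled CPM of the 6 tested genes (vertical axis, starting at 0) in each group, with bars at the mean of 2 libraries and points for the libraries. CCND1 and CDKN1A are higher in all 4 NeuT libraries than in all 4 Empty libraries, CDKN1B is lower in all 4 NeuT libraries, and CCNE1 and CCNE2 are lowest in NeuT with JG-98.

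The lines were first compared without the drug. NeuT cells had more CCND1 and CDKN1A and less CCNE1, CCNE2 and CDKN1B than Empty cells, and CCND3 did not pass the test. Thus 5 of the 6 tested genes were called (adjusted p-value under 0.05 by edgeR's quasi-likelihood test), 2 higher and 3 lower in NeuT, in a comparison that called 42.0% of all 17693 tested genes. For these 6 genes the libraries of the groups did not overlap, as was so for 73.2% of all tested genes. Their median log2 difference was -0.15, against -0.02 for all tested genes. With total counts as the only scaling, 40.7% of the calls over all genes were higher in NeuT instead of 50.5%, and the directions of the 5 genes stayed. In bulk RNA, fewer cells of a kind and less RNA per cell cannot be told apart.

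CDKN1A (ENSG00000124762, chromosome 6, 36676460 to 36687339), the gene of the CDK inhibitor p21, was at 443.1 and 448.3 CPM in the untreated Empty libraries and at 778.8 and 762.3 CPM in the untreated NeuT libraries. It was therefore higher in NeuT by 0.79 on the log2 scale (SE 0.051; adjusted p-value 1.6e-09 by edgeR), or 1.73-fold. CCND1 (ENSG00000110092, chromosome 11, 69641087 to 69654474), which encodes the main cyclin D of epithelial cells, was at 409.2 and 399.1 CPM in Empty and at 632.9 and 608.4 CPM in NeuT. Its log2 difference was 0.62 (SE 0.053; adjusted p-value 6.5e-08 by edgeR), or 1.54-fold. These were the 2 most abundant genes of the set, and the cyclin and the inhibitor were higher in the same libraries. Of their exonic bases, 4.79% (CDKN1A) and 10.3% (CCND1) are shared with other genes.

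CDKN1B (ENSG00000111276, chromosome 12, 12715058 to 12722369), the gene of p27, went the other way. It was at 23.6 and 22.3 CPM in untreated Empty and at 16.01 and 16.4 CPM in untreated NeuT, which differs by -0.50 on the log2 scale (SE 0.080; adjusted p-value 7.7e-05 by edgeR). The 2 expressed Cip/Kip genes thus differed between the lines in opposite directions, with no overlap between the libraries of either gene. The summed TPM of the Cip/Kip genes was 590.3 and 606.9 in untreated Empty and 948.8 and 930.9 in untreated NeuT, since CDKN1A outweighed CDKN1B.

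CCNE1 (ENSG00000105173, chromosome 19, 29811991 to 29824312) and CCNE2 (ENSG00000175305, chromosome 8, 94879770 to 94896678) encode the cyclins that activate CDK2 at the end of G1. CCNE1 was at 38.2 and 37.4 CPM in untreated Empty and at 30.3 and 32.6 CPM in untreated NeuT, which differs by -0.26 on the log2 scale (SE 0.072; adjusted p-value 0.00722 by edgeR). CCNE2 was at 28.9 and 27.3 CPM in Empty and at 22.6 and 21.5 CPM in NeuT, a log2 difference of -0.35 (SE 0.096; adjusted p-value 0.0071 by edgeR). Both cyclin E genes were lower in NeuT, each by less than CCND1 was higher. CCNE1 was not called without untreated Empty replicate 1 (adjusted p-value 0.0659 by edgeR) or untreated NeuT replicate 1 (0.127), and CCNE2 not without untreated Empty replicate 1 (0.0760) or untreated NeuT replicate 2 (0.0884). Of the exonic bases of CCNE2, 37.1% are shared with other genes, among them INTS8, and the use of strand in counting is not given in the sources used here, so its level is uncertain.

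CCND3 (ENSG00000112576, chromosome 6, 41934933 to 42050357), the other expressed D-type cyclin gene, was at 222.5 and 224.6 CPM in untreated Empty and at 217.5 and 217.5 CPM in untreated NeuT. Its log2 difference was -0.04, with a 95% interval from -0.16 to 0.08 (adjusted p-value 0.602 by edgeR). The difference of CCND1, 0.62, lay outside that interval.

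The stretch of DNA before the transcript start is shown for CCNE1 and CDKN1B, which were lower in NeuT in both comparisons of the lines, with GC boxes (GGGCGG, or CCGCCC on the other strand) in capitals. The sequences are from RefSeq, build GRCh38.p14, both on the plus strand, and end at the base before the RefSeq start, at chr19:29811741-29811990 for CCNE1 and chr12:12717118-12717367 for CDKN1B.
CCNE1: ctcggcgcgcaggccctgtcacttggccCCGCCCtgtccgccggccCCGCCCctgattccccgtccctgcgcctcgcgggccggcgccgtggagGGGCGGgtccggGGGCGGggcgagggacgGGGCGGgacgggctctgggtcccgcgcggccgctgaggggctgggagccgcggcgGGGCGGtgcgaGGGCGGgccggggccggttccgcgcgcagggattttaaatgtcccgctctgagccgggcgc
CDKN1B: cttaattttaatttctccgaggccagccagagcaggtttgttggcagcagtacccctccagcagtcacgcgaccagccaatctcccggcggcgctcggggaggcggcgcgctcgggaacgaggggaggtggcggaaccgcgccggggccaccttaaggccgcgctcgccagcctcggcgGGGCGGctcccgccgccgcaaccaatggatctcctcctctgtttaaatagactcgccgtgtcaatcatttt
The RefSeq start of CDKN1B lies inside the gene as the count table has it. The CCNE1 window held 7 GC boxes and that of CDKN1B 1, and 42.6% of all 35116 windows of 250 bases held at least 1. Neither window held an E2F site as searched on both strands (TTTCCCGC, TTTCGCGC, TTTGGCGC or TTTGCCGC, found in 2.79% of all windows), a TATA box (TATAAA, in 10.7%), a cAMP response element (TGACGTCA, in 1.65%) or a cell cycle homology region (TTTGAA or TTCGAA, in 14.3%). The CDKN1B window held 2 CCAAT boxes (CCAAT, in 32.0% of all windows) and that of CCNE1 0. Such matches are descriptions of letters, not of binding. Only these exact words were searched, and no base after the start, so sites of other spelling or place were not looked for. The upstream sequences used here held entries for 6 of the 10 genes, and not for CCND1, CCND2, CCNE2 and CDKN1C.

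**Figure D3:**
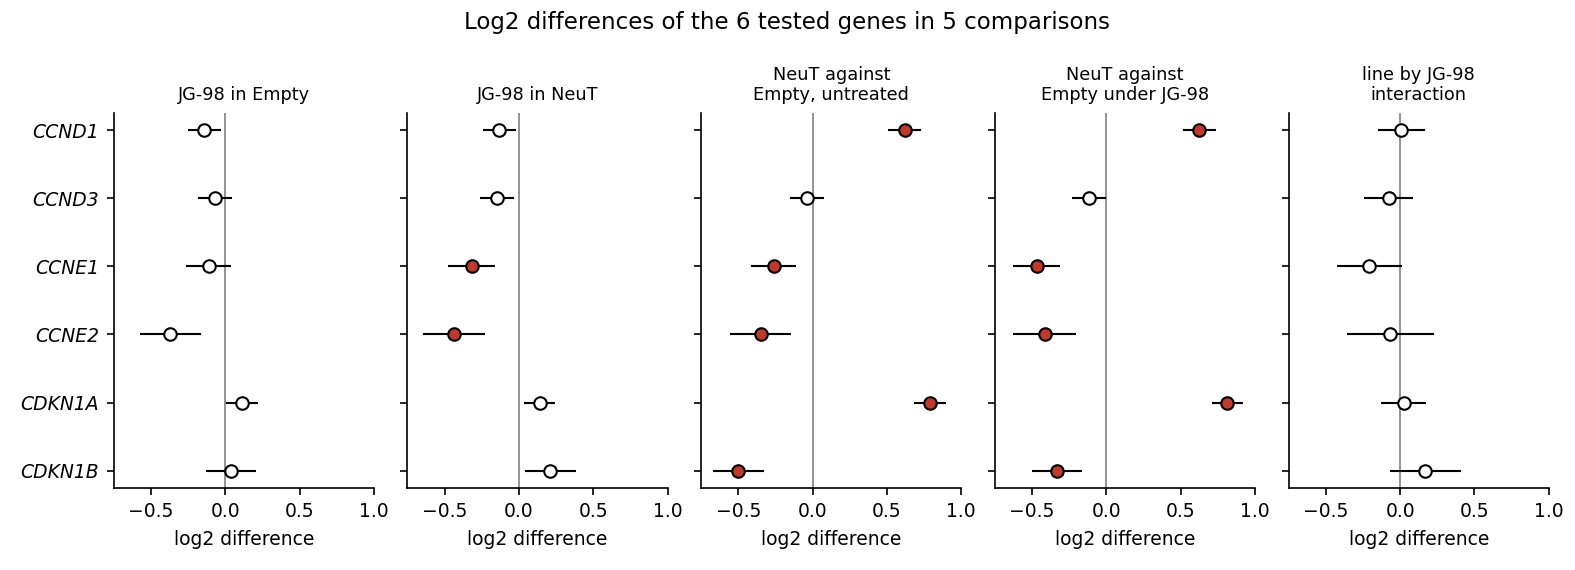
Log2 differences (horizontal axis) of the 6 tested genes in the 5 comparisons, with lines for the 95% interval from the quasi-likelihood fit and filled points for an edgeR adjusted p-value under 0.05. The called differences are those of 5 genes between the lines, without and with JG-98, and of CCNE1 and CCNE2 with JG-98 in NeuT, while no interaction is called.

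Under JG-98 the same 5 genes differed between the lines in the same directions, and CCND3 again did not pass. The comparison called 41.7% of all tested genes, 21.7% as higher and 20.0% as lower in NeuT, and the libraries did not overlap for the 6 genes or for 67.6% of all genes. With total counts, 41.0% of the calls over all genes were higher in NeuT instead of 52.0%, and the directions of the 5 genes stayed. CDKN1A was at 480.9 and 484.0 CPM in treated Empty and at 826.9 and 870.0 CPM in treated NeuT (log2 difference 0.81, SE 0.051; adjusted p-value 1.1e-09 by edgeR). CCND1 was at 355.5 and 377.7 CPM in Empty and at 554.0 and 578.0 CPM in NeuT (log2 difference 0.63, SE 0.053; adjusted p-value 5.5e-08 by edgeR). Of the genes lower in NeuT, CCNE1 had a log2 difference of -0.47 (SE 0.074; adjusted p-value 6.1e-05 by edgeR), CCNE2 one of -0.42 (SE 0.10; 0.00268) and CDKN1B one of -0.33 (SE 0.080; 0.00298). Without treated NeuT replicate 2 the difference of CCNE2 was -0.27 (adjusted p-value 0.0328 by edgeR), and that of CDKN1B -0.31. CCND3 had a log2 difference of -0.12 that was not called (adjusted p-value 0.102 by edgeR), and it was called with total counts (0.0121) and without treated NeuT replicate 1 (0.0175).

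Fewer genes of the set were called for JG-98 than between the lines. In Empty cells 0 of the 6 tested genes were called by edgeR, in a comparison that called 0.339% of all genes (0.260% as higher and 0.0791% as lower), and 3 had an unadjusted p-value under 0.05, as did 9.83% of all genes. DESeq2 and limma-voom also called 0 of them. In NeuT cells edgeR called 2 of the 6, CCNE1 and CCNE2, both lower, in a comparison that called 3.01% of all genes (2.01% as higher and 1.01% as lower), and 6 of 6 had an unadjusted p-value under 0.05, as did 15.99% of all genes. Treated and untreated libraries did not overlap for 5 of the 6 genes in Empty, beside 43.1% of all genes, and for 6 of 6 in NeuT, beside 44.8%. The members' median log2 change was -0.09 in Empty and -0.14 in NeuT, against -0.00334 and 0.000213 for all tested genes.

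CCNE2 showed the largest change with the drug in each line. In Empty it was at 28.9 and 27.3 CPM without JG-98 and at 20.7 and 22.7 CPM with it, a log2 change of -0.37 (SE 0.097) that did not pass (adjusted p-value 0.151 by edgeR). In NeuT it went from 22.6 and 21.5 CPM to 18.1 and 14.5 CPM, a log2 change of -0.44 (SE 0.099; adjusted p-value 0.0223 by edgeR). Treated and untreated libraries did not overlap in either line. The Empty change was called by edgeR when the filter was removed (adjusted p-value 0.0044) and when only the 4 Empty libraries were fitted (0.0284). Calls over all genes in Empty then also rose, from 60 to 282 and 205. Without treated NeuT replicate 1 or 2 the Empty change was -0.36 in each fit. The NeuT change was not called with only the 4 NeuT libraries (0.106), without treated NeuT replicate 2 (0.139) or without untreated NeuT replicate 1 or 2 (0.208 and 0.138).

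CCNE1 was at 38.2 and 37.4 CPM in untreated Empty and at 36.1 and 33.8 CPM in treated Empty, a log2 change of -0.11 (SE 0.073) that was not called (adjusted p-value 0.661 by edgeR). In NeuT it fell from 30.3 and 32.6 CPM to 25.9 and 24.6 CPM, a log2 change of -0.32 (SE 0.074; adjusted p-value 0.0248 by edgeR), or 0.802 times the untreated level. Its interaction of line and drug was -0.21 (SE 0.10) and was not called (adjusted p-value 0.657 by edgeR), so a different response of the lines is not shown. The NeuT call did not hold with only the 4 NeuT libraries (0.115), without treated NeuT replicate 2 (0.0743), without untreated NeuT replicate 1 or 2 (0.0994 and 0.314) or without untreated Empty replicate 1 or 2 (0.0590 and 0.0585). For NeuT, the authors' deposited table lists CCNE1 with a log2 fold change of -0.32 and CCNE2 with -0.44, at adjusted p-values of 0.0339 and 0.0287. For Empty, the authors' deposited table has adjusted p-values of 0.601 and 0.1503.

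The D-type cyclins and the inhibitors were not called. CCND1 had log2 changes of -0.14 and -0.13 (SE 0.053 each) in Empty and NeuT (adjusted p-values 0.357 and 0.222 by edgeR), with treated libraries below untreated ones in both lines. CCND3 was at 207.3 and 218.6 CPM in treated Empty and at 203.5 and 189.4 CPM in treated NeuT, log2 changes of -0.07 (SE 0.055) and -0.15 (SE 0.055; edgeR adjusted p-values 0.735 and 0.187). CDKN1A had log2 changes of 0.11 (SE 0.050) and 0.14 (SE 0.050; edgeR adjusted p-values 0.459 and 0.171), with treated libraries above untreated ones in both lines. Without treated NeuT replicate 1, which leaves 1 library in that group, the NeuT changes were 0.17 for CDKN1A and -0.20 for CCND3.

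CDKN1B was at 23.1 and 24.0 CPM in treated Empty, overlapping the untreated libraries (log2 change 0.04, SE 0.079; adjusted p-value 0.926 by edgeR). In treated NeuT it was at 19.0 and 18.5 CPM, above both untreated libraries, with a log2 change of 0.21 (SE 0.081; adjusted p-value 0.204 by edgeR). The upper ends of the 95% intervals for JG-98 were 0.22 in Empty and 0.25 in NeuT for CDKN1A, so a rise of CDKN1A as large as its difference between the lines lay outside them. For CCND1 the lower ends were -0.25 and -0.25.

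The responses of the lines were then compared directly. The interaction of line and JG-98 was called for 0 of the 6 genes by edgeR, with adjusted p-values of 0.657 to 0.992 and no unadjusted p-value under 0.05, and it was called for 1 gene (0.00565%) of all those tested. DESeq2 and limma-voom called it for 0 of the 6 as well, and for 19 and 1 of all genes. Without a filter the call was made for 0 of the 6 and for 138 of all genes. The interaction was 0.00735 for CCND1 (95% interval -0.15 to 0.17) and 0.02 for CDKN1A (-0.13 to 0.18). For CCNE2 the interval was wider, from -0.36 to 0.23. The interval of CCNE1 ran from -0.43 to 0.01, and CDKN1B had an interaction of 0.17 (-0.07 to 0.41).

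The wider G1 machinery was described with 2 lists of genes, taken without the 10 genes of the set. The first held 30 genes of G1 kinases, RB-family proteins, E2F factors and their regulators. In untreated NeuT, 17 of its 30 tested genes were called lower than in Empty and 3 higher (median log2 difference -0.32), beside 20.8% and 21.2% of all genes. Higher in NeuT were MYC (0.62, SE 0.049), a growth-promoting transcription factor, CDK6 (0.36, SE 0.074) and E2F4 (0.29, SE 0.053), an E2F that mostly represses. The largest falls were those of CDKN3 (-2.14, SE 0.095), a phosphatase gene of CDKs, CDKN2C (-1.22, SE 0.13), an INK4 inhibitor gene, and E2F2 (-1.20, SE 0.10). All 6 were called, with edgeR adjusted p-values up to 0.000752. Under JG-98, 18 were called lower and 3 higher in NeuT (median -0.37), beside 20.0% and 21.7% of all genes. The 3 called higher were CDK6 (0.51, SE 0.074), MYC (0.45, SE 0.049) and RBL2 (0.19, SE 0.065, adjusted p-value 0.0251 by edgeR), a gene of the RB family. RBL2 was not called with total counts (0.173), with only the 4 libraries compared (0.0835) or without treated Empty replicate 1 (0.187).

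The kinase partners and the remaining INK4 genes were picked out for naming after their values had been seen. CDK6, which pairs with the D-type cyclins, was measured without the drug at 100.8 ± 2.34 CPM in Empty and 129.8 ± 3.11 CPM in NeuT (SD, n = 2 each). CDK4, which does the same, was lower in untreated NeuT by 0.32 (SE 0.065; adjusted p-value 0.000715 by edgeR), and CDK2, the partner of cyclin E, by 0.47 (SE 0.069; adjusted p-value 2.9e-05 by edgeR). Of the INK4 genes other than CDKN2A and CDKN2B, CDKN2C stood without the drug at 18.3 ± 0.411 CPM in Empty and 7.85 ± 0.631 CPM in NeuT (SD, n = 2 each). CDKN2D was at 7.19 ± 0.199 and 6.92 ± 0.661 CPM (SD, n = 2 each) and was not called (adjusted p-value 0.739 by edgeR). Under JG-98 CDKN2D was lower in NeuT by 0.39 on the log2 scale (SE 0.115; adjusted p-value 0.0110 by edgeR), a call lost without treated Empty replicate 1 (0.0807) or treated NeuT replicate 1 (0.0599). INK4 transcripts were therefore present in both lines, through CDKN2C and CDKN2D.

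The second list held 23 genes that E2F factors are known to drive or that encode later cyclins, of which E2F1 and RBL1 are also in the first. All 23 were lower in untreated NeuT and called (median log2 difference -0.91), beside 20.8% of all tested genes called lower. Under JG-98 all 23 were again lower and called (median -1.01), beside 20.0%. The genes of the mitotic cyclins showed the largest falls without the drug, CCNB1 by -2.02 (SE 0.062), CCNB2 by -1.94 (SE 0.081) and CCNA2 by -1.51 (SE 0.077), all with edgeR adjusted p-values up to 1.3e-10. The differences of CCNE1 and CCNE2 between the lines were smaller than the list's median. MKI67, the gene of the proliferation marker Ki-67, reached 305.6 ± 27.6 CPM in Empty and 92.3 ± 5.84 CPM in NeuT without the drug (SD, n = 2 each). These markers of cycling moved with the line as the cyclin E genes did, and their part in the differences of the G1 genes was not tested.

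With JG-98 in NeuT, 8 of the 23 genes were lower and called and 0 higher (median -0.25), beside 1.01% of all genes called lower, and in Empty 0 were called by edgeR (median -0.13). Both counts depended on the fit: with CCNE1 and CCNE2 included, the NeuT count of 10 was 1 with only the 4 libraries compared, 3 without treated NeuT replicate 2, 1 and 0 without untreated NeuT replicate 1 and 2, and 22 without treated NeuT replicate 1. The Empty count was 7 with only the 4 libraries compared. In that setting calls over all genes were 205 in place of 60 in Empty, and 185 in place of 533 in NeuT. For MKI67 the log2 change was 0.01 (SE 0.072) in NeuT and -0.26 (SE 0.070) in Empty, neither called (adjusted p-values 0.956 and 0.174 by edgeR). In NeuT the falls of largest size besides CCNE2 were those of CDC6 (-0.39, SE 0.084) and CDT1 (-0.36, SE 0.065), which license origins of replication. Of the first list, 3 genes were called in NeuT, all lower: SKP2 (-0.63, SE 0.081), the subunit of the ubiquitin ligase that marks p27 for destruction, CDC25A (-0.45, SE 0.079), a phosphatase that activates CDK2, and DTL (-0.38, SE 0.064), part of another ligase that acts on p21. Their edgeR adjusted p-values were 0.00025, 0.0038 and 0.0027, and none of the 30 was called in Empty by edgeR. With only the 4 NeuT libraries, CDC25A and CDC6 were not called (0.0534 and 0.117). The calls of CDC25A and DTL were lost without untreated NeuT replicate 1 (0.0971 and 0.0689), that of CDC6 without untreated NeuT replicate 1 or 2 (0.106 and 0.194), and that of CDT1 without untreated NeuT replicate 2 (0.116). Without treated NeuT replicate 2 the change of CDC6 was -0.24. The call of SKP2 held under every alternative tried. CDK7, a kinase that activates other CDKs, was also picked out after its values had been seen: it averaged 0.544 ± 0.0970 CPM in untreated and 2.83 ± 3.22 CPM in treated NeuT (SD, n = 2 each), with a spread between the treated libraries above their mean, and its log2 change of 2.38 was not called (adjusted p-value 0.399 by edgeR). The interaction was called for 0 genes of either list, with an edgeR adjusted p-value of 0.349 for SKP2. Without a filter it was called for 1 gene of the first list, beside 138 of all genes. These counts also changed with the libraries left out, as given below.

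**Figure D4:**
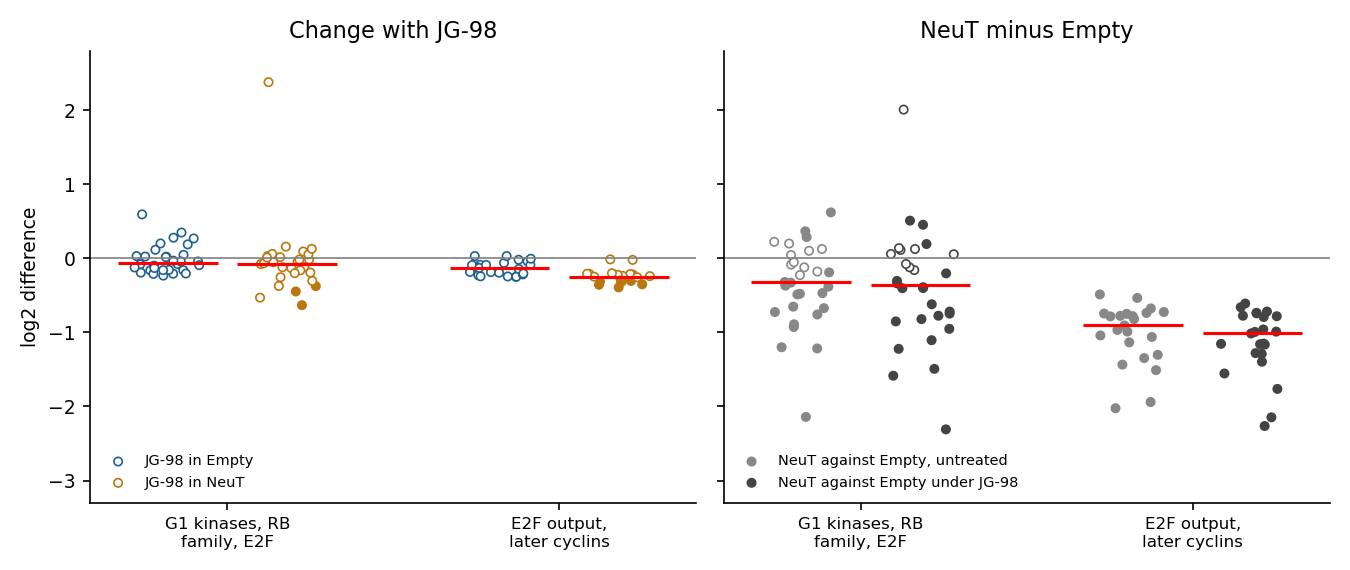
Log2 differences (vertical axis) of the genes of 2 lists, without the 10 genes of the set, for JG-98 in each line (left) and for NeuT against Empty (right). Each point is a gene, filled where the edgeR adjusted p-value was under 0.05, and red lines are medians, which for the 23 E2F-driven genes and later cyclins lie at -0.91 and -1.01 between the lines.

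The genes whose levels followed each tested gene most closely were found by Pearson's r over the 8 libraries. It was taken on the log2 of CPM plus 0.5, among the 13116 genes that averaged 50 counts or more. The libraries share line and treatment, so they are not independent points, and 2279 genes had an r above 0.9 with CDKN1A. The closest to CDKN1A were DUSP1, a phosphatase gene of MAP kinases (r = 0.9997), and CSF3, the gene of a colony-stimulating factor (0.999). CSF3 was at 0.106 to 0.477 CPM in Empty and 15.0 to 38.1 CPM in NeuT, so it reached the minimum mean of 50 counts over the libraries through NeuT. CCND1 was followed most closely by RNF24 and B3GNT9 (0.997 and 0.996), and CCNE1 by CDCA4 and AMD1 (0.992 and 0.991). For CCNE2 they were NCOA4 and UNG (0.989 and 0.978), for CDKN1B TMEM116 and SLC2A12 (0.992 and 0.990), and for CCND3 IRX5 and SFXN1 (0.977 and 0.975). CCND3, which did not differ between the lines by a called amount, had 87 genes above 0.9.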

How the data were processed

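RNA sequencing of 8 MCF-10A libraries was analysed. The authors deposited raw counts of all genes in 1 table with the columns of featureCounts output, per the file headers. Trim Galore 0.5.0, FastQC 0.11.7, HISAT2 2.1.0, SAMtools 1.9, featureCounts 1.6.3, limma and the builds hg38 and GRCh38 are named, with no role or order, in the submitters' processing notes. Strand use and multi-mapping are not given in the sources used here. The authors also deposited a table per line with log2 fold changes, p-values and test scores, per the file headers in the layout of limma output.

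Samples were grouped by title, table columns were matched to titles by their initials, and 0 columns of per-sample values had no sample. Symbols came from a gene-name table that held 60261.0 of 60617 identifiers. Coordinates are those of the count table, 1-based. The deposited counts went unchanged into edgeR 4.0.16 (R 4.3.3): filterByExpr (minimum count 10, total 15) kept 17693 of the 31967 genes with a count, TMM scaled the libraries, and all 8 shared 1 robust quasi-likelihood fit with 4 group terms. Adjustment was by Benjamini-Hochberg across every gene tested, called means an adjusted p-value under 0.05, and a standard error is the log2 value over the root of its F statistic, and 95% intervals use the t distribution with that test's degrees of freedom. At 2 against 2 an exact permutation test cannot go below 0.333. The scripts were tested on simulated data. Replicates differed by more than sampling noise. Same-numbered libraries deviated together with an r of -0.10 to 0.25 over the 6 pairs of groups, so they were not treated as pairs.

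The 10 genes and the lists were chosen with earlier results of these data known. From the lists, the 3 largest called differences in each direction are named, besides MKI67 and, picked after their values were seen, CDK2, CDK4, CDK7 and CDKN2D. Results for 1 further gene and 1 further list are not reported here. For each tested gene the 2 most similar genes are named. Alternatives were RLE factors, total counts, no filter, 10 or more counts required of each library, DESeq2 1.42.0, limma-voom (limma 3.58.1), no robust estimation, the replicate number as a block, only the 4 libraries compared and each library left out. A crossed block for NeuT, and all alternatives for the lists and the genes named from them, were added after seeing the data.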

Additional observations from a re-analysis of the deposited data

How the results depend on the processing

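The counts of called genes among the 6 tested were 0 for JG-98 in Empty, 2 for JG-98 in NeuT, 5 and 5 between the lines without and with the drug, and 0 for the interaction. With the replicate number as a block they were 0, 2, 5, 5 and 0, so the block changed no count, and it changed no call of the 6 genes. For JG-98 in Empty the count was 1 without a filter and 1 with only the 4 libraries compared, and 0 to 1 when libraries were left out in turn. For JG-98 in NeuT it was 0 with only the 4 libraries compared, and 0 to 4 when libraries were left out. Between untreated lines it ran from 3 to 5 over the left-out libraries, with 3 without untreated Empty replicate 1. Between treated lines it ran from 5 to 6, and for the interaction it was 0 in each. A left-out library leaves 1 in its group, which was taken to vary like the others. With the NeuT replicate numbers crossed as a block in the 4-library fit, 2 of the 6 and 943 of all genes were called. Of 510 values of the 6 genes under the alternatives, 479 kept their direction and side of the threshold, 14 lost the call, 8 gained it and 9 changed sign. The sign changes came from leaving out 1 library, in values that were not called. The CCND1 interaction then ran from -0.0368 to 0.0534, that of CCNE2 from -0.240 to 0.0700, that of CDKN1A from -0.0254 to 0.0536, and the change of CDKN1B in Empty from -0.000437 to 0.0800. Outside these 6 genes, CDKN2D between untreated lines ran from -0.139 to 0.0520. The CCND1 and CDKN1A differences between the lines were called under every alternative, with adjusted p-values up to 2.3e-05 and 1.9e-06, as were those of CDKN1B, up to 0.0315.

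Over all genes, 60 were called for JG-98 in Empty and 533 in NeuT. The first count was 146 with DESeq2, 282 without a filter, 205 with only the 4 libraries compared and 9 to 417 with libraries left out. The second was 1000, 185 and 132 to 2133 for the last 3 of these settings. The interaction count of 1 was 19 with DESeq2, 138 without a filter, 2 with total counts, 3 without robust estimation and 1 to 777 with libraries left out, the highest without treated NeuT replicate 1. In the E2F list, which here includes CCNE1 and CCNE2, 10 of 25 genes were called lower with JG-98 in NeuT. That count was 16 with DESeq2, 20 without a filter, 1 with only the 4 libraries compared and 0 to 22 with libraries left out. In Empty it was 0, and 3, 7 and 7 in those settings and up to 9 with libraries left out. Of the 30 G1 genes, 3 were called lower in NeuT, 6 with DESeq2, 6 without a filter, 5 with the crossed block and 1 to 10 with libraries left out. Their count in Empty was 0 and up to 2 with libraries left out. Without treated NeuT replicate 1, the interaction was called for 10 genes of the E2F list and for 9 of the 30 G1 genes. CCND2, CDKN1C, CDKN2A and CDKN2B had too few counts for any comparison at this depth.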
